A study of Mus musculus with 6 samples.

Results

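Mature microRNAs (miRNAs) that have been linked to megakaryocytes, the platelet-forming cells of bone marrow, were followed in mouse erythroid cells in which the transcription factor GATA-1 was switched on. The set holds 7 probes, which are all the probes on the array that name mmu-miR-10a, mmu-miR-10b, mmu-miR-126-3p, mmu-miR-126-5p, mmu-miR-130a, mmu-miR-132 or mmu-miR-150, out of 294 probes that name a mouse miRNA. The species prefix mmu is left out below. Estradiol-treated cells (1e-07 M for 24 h, 3 arrays) were set against untreated cells (0 h, 3 arrays), all of the line G1E-ER4. Cells of both groups lack their own GATA-1, carry a form of it that estrogen activates, and grew with erythropoietin and stem cell factor. The 6 cultures were grown and harvested independently. Each sample, labelled with the dye Hy3, shared its array with a common reference in the dye Hy5, mixed in equal parts from all 6 samples. No culture kept for 24 h without estradiol is among the samples, so an effect of GATA-1 cannot be told apart from one of estradiol itself or of a day in culture. The labels give no dye swap.

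A mature miRNA guides the silencing complex to messenger RNAs that pair with its seed, bases 2 to 8 from its 5′ end, so miRNAs with the same seed share many predicted targets. GATA-1 is needed for both red cell and megakaryocyte maturation, and the 2 lineages arise from a shared progenitor. The miRNAs described here come from different genes and have been linked to megakaryocytes for different reasons. MiR-150 favours megakaryocytes over red cells in that progenitor and represses the transcription factor gene Myb, whereas miR-10a, miR-10b, miR-126 and miR-130a were reported as lower in human megakaryocyte cultures. MiR-126 is also a marker of endothelial and blood stem cells, and miR-132 is best known from neurons.

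The RefSeq tables of assembly GRCm38.p6 held the mature sequence of 5 of the 7 members, the exceptions being miR-126-5p and miR-150. These sequences are shown because some members and relatives differ by only a few bases. Each is written 5′ to 3′ with its seed in capitals, under the array's name, which was paired with the arm that this older name stands for.
miR-10a: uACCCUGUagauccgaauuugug
miR-10b: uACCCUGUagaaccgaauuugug
miR-126-3p: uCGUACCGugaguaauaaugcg
miR-130a: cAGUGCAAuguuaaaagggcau
miR-132: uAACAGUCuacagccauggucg

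The 5 sequences carry 4 different seeds, and only miR-10a and miR-10b share one. Over their 23 bases these differ by the single substitution U12A (miR-10a's base first, positions counted from 1 at the 5′ end). Relatives of the members were measured on the same arrays, and those that share a member's seed are given for comparison.
miR-130b: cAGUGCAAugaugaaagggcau
miR-301: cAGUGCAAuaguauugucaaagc
miR-212: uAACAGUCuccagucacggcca

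MiR-130b has the seed of miR-130a and differs from it by U11A and A13G, while miR-301, again with that seed, matches 12 of the first 22 bases. MiR-212 has the seed of miR-132 and matches it at 17 of 22 bases. The genes lie apart in the genome, apart from that last pair. The mature miR-10a lies at chr11:96317186-96317208 (plus strand, GRCm38.p6), and its gene Mir10a overlaps Hoxb3 in the Hoxb cluster. MiR-10b lies at chr2:74726074-74726096 (plus strand), where Mir10b overlaps Hoxd3 and Hoxd4. MiR-126-3p lies at chr2:26591402-26591423 (plus strand) in Mir126a, which overlaps Egfl7, a gene of blood vessel lining cells. MiR-130a lies at chr2:84741116-84741137 (minus strand) and overlaps no other annotated gene. MiR-132 lies at chr11:75173723-75173744 (plus strand), and its gene Mir132 begins 204 bases from the end of Mir212. Mir150 is annotated on chromosome 7, at 45121757 to 45121821, and overlaps no other gene.

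The arrays hold 4 spots per probe. The spot-finding software's own call of a spot as empty is used below to say where a probe gave no signal, and a probe counts as seen on an array if more than a share of 0.5 of its spots were not empty. Over all miRNA spots, the median Hy3 foreground was between 1435.5 and 1533.25 intensity units on the estradiol arrays and between 1272.75 and 1854.5 on the untreated arrays, and the median local Hy3 background was 1004.75 to 1035.5 on the estradiol arrays and 982.5 to 1412 on the untreated arrays. Background-corrected intensities were higher on the estradiol arrays in both channels, by a median of 0.53 (Hy3) and 0.57 (Hy5) on the log2 scale over the 51 probes that passed the brightness filter, although Hy5 carries the same RNA on all arrays. Of the 6 probes for miRNAs of maturing red cells, 4 rose and 0 fell with all 294 probes tested, while miR-185 stood at -0.1 (limma adjusted p = 0.517) and miR-486 at 0.43 (limma adjusted p = 0.176). Of the 2 bright ones, miR-451 rose (limma adjusted p = 3.41e-09 over 51 probes) and miR-185 did not pass. MiR-451 was seen in Hy3 on 3 estradiol arrays and 0 untreated arrays, so its difference has no measured size and none is given. It thus passed the brightness filter through the estradiol arrays alone. Of the 8 myeloid marker probes 5 gave no Hy3 signal on any array, and with all 294 probes tested 3 rose and 0 fell. Over all 294 probes 5.78% rose and 0.68% fell. Among the listed probes that rose, miR-144 was seen in Hy3 on only 1 array and miR-21 on 0 untreated arrays.

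Only 3 of the 7 members gave signal in the sample channel, namely miR-130a, miR-10a and miR-150, and 1 of these, miR-130a, was also seen in the reference. The other 4, miR-10b, both arms of miR-126 and miR-132, were empty in Hy3 on all 6 arrays, in all 24 spots each. None of the 7 changed past the threshold after estradiol. In extracts of whole cultures, fewer cells with a miRNA and less of it per cell cannot be told apart. The 2 members bright enough for the main test were miR-130a and miR-10a, and the reference of miR-10a was empty. Of these 2, 0 passed a limma adjusted p of 0.05, where 13.7% of the 51 tested probes did (11.8% higher and 1.96% lower after estradiol), and 1 of the 2 had an unadjusted p below 0.05. Neither had log ratios without overlap between the groups, which 29.4% of the 51 had. With all 294 probes tested 0 of 7 passed, where 6.46% of probes did (5.78% higher and 0.68% lower), and 2 of the 7 had an unadjusted p below 0.05. The median difference of the 7 was then 0.16 on the log2 scale, beside -0.02 over all 294 probes. The 2 members counted by unadjusted p were miR-130a and miR-126-3p, and miR-126-3p was empty in Hy3 on all 6 arrays. No share over all probes was computed for unadjusted p, so the counts of 1 of 2 and 2 of 7 have no comparison. A probe could pass the brightness filter through 1 group alone, as miR-130a did through the estradiol arrays. The shares higher and lower among the 51 thus depend on that filter. With 2 to 7 probes these counts do not tell the members from the rest of the array.

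**Figure D1:**
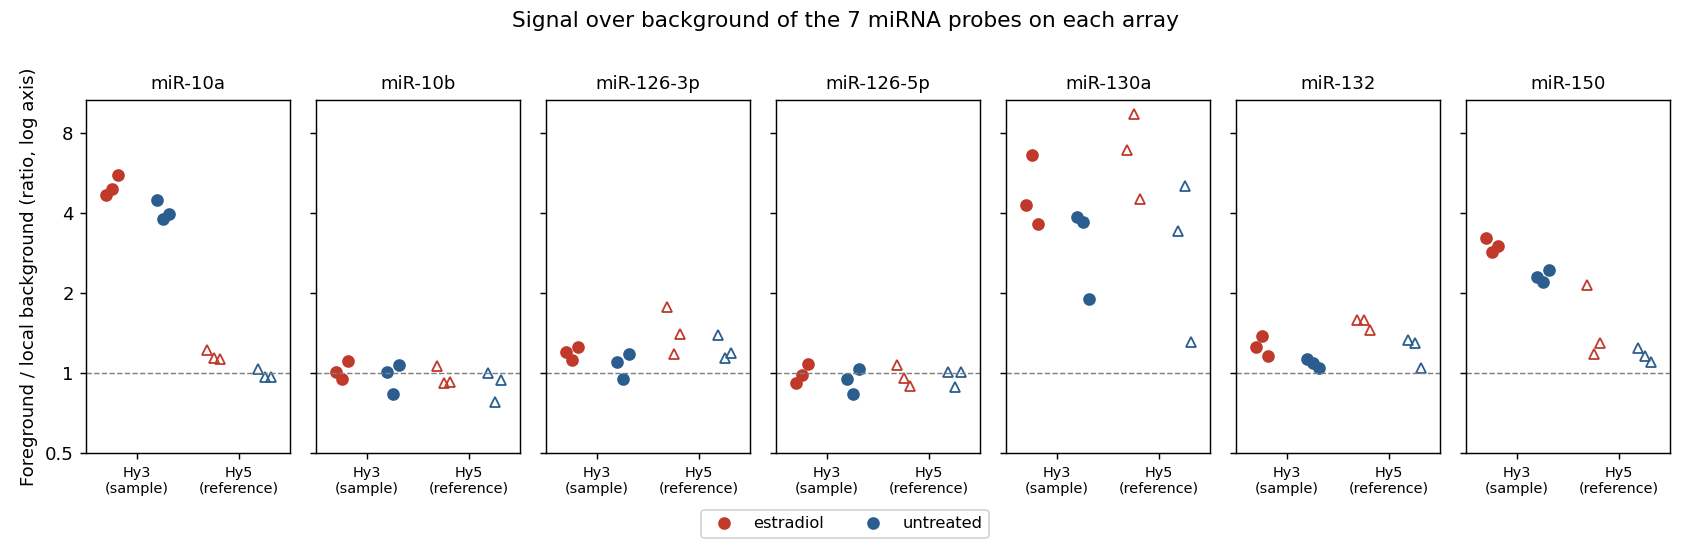
Foreground divided by local background (log axis) for each of the 7 probes, as the mean over 4 spots on each array, with filled circles for Hy3 (sample), open triangles for Hy5 (reference), red for the 3 estradiol and blue for the 3 untreated arrays. MiR-10a lies between 3.81 and 5.6 in Hy3 and between 0.965 and 1.22 in Hy5, miR-130a is raised in both channels, and miR-10b and miR-126-5p lie around the dashed line at 1 in both.

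MiR-130a shares its seed with miR-130b and miR-301. Its Hy3 foreground was 4618, 6599 and 3810 intensity units on estradiol arrays 1 to 3, over local backgrounds of 1076, 992 and 1044. On untreated arrays 1 to 3 it was 3740, 4213 and 2924, over backgrounds of 966, 1135 and 1540. Untreated array 3 stood apart, since 3 of its 4 Hy3 spots and all 4 Hy5 spots were called empty there. In the reference, the Hy5 foreground was 3709, 4854 and 2874 on the estradiol arrays and 1910, 3462 and 1643 on the untreated arrays. Both channels were thus brighter on average after estradiol, by 0.67 in Hy3 and 1.16 in Hy5 (background-corrected log2 intensity), and the groups overlapped in both. The medians over the bright probes were 0.53 in Hy3 and 0.57 in Hy5. On average miR-130a thus stood further above the median in the reference than in the sample, and its mean Hy3 level was not lower after estradiol. The untreated arrays spread widely, with an SD of 0.66 in Hy3 and 1.06 in Hy5. Exact permutation p for the group difference was 0.3 in Hy3 and 0.2 in Hy5 (two-sided, smallest possible 0.1).

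The log ratio of sample to reference is meant to take out brightness that both channels share. For miR-130a it was 0.08, 0.18 and 0.28 on estradiol arrays 1 to 3, against 0.61, 0.28 and 0.93 on untreated arrays 1 to 3. The lowest untreated value met the highest estradiol value, and the other 2 untreated arrays lay above all estradiol arrays. The group means were 0.18 ± 0.1 after estradiol and 0.61 ± 0.32 in untreated cells (SD, n = 3 each). The difference was -0.42 on the log2 scale (SE 0.16, 95% interval -0.79 to -0.05, limma adjusted p = 0.111 over 51 probes), so the lower ratio after estradiol did not pass the threshold. It did pass without untreated array 2, the one nearest to the estradiol arrays (-0.58, adjusted p = 0.0153, against 0.0153 to 0.686 over all alternatives). Without untreated array 3, the dim one, it stood at -0.26 (adjusted p = 0.137). The authors' deposited table gives log2 ratios of 0.11, 0.22 and 0.32 on the estradiol arrays and 0.64 and 0.32 on untreated arrays 1 and 2, and lists none for untreated array 3. Fitted on those 5 values the difference was -0.26 (adjusted p = 0.258). In Hy3 alone, normalized by quantiles with the reference left out, its sign turned to 0.27 (SE 0.36, adjusted p = 0.686).

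**Figure D2:**
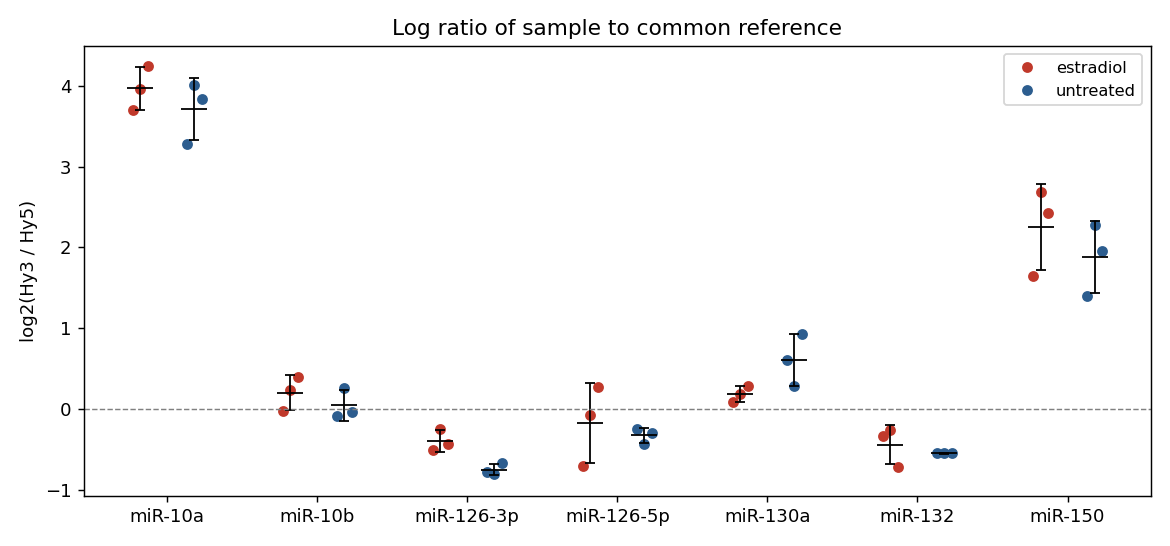
Log2 ratio of Hy3 (sample) to Hy5 (reference) for each member, with estradiol arrays in red, untreated arrays in blue, and bars for the mean and SD of 3 arrays. Only the miR-126-3p groups do not overlap, miR-130a averages 0.18 after estradiol and 0.61 in untreated cells, and miR-10a and miR-150 lie above 1 on every array.

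Spot by spot, the channels of miR-130a moved together. Net of background, its 24 spots ran from 980 to 7764 units in Hy3 and from 234.5 to 5883 in Hy5, and the channels followed each other with a Pearson correlation of 0.94. That value describes spots of 1 probe, which share arrays and print positions, and is no test. Over the 6 arrays the background-corrected Hy3 level spanned 1.89 log2 units and the log ratio 0.84.

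**Figure D3:**
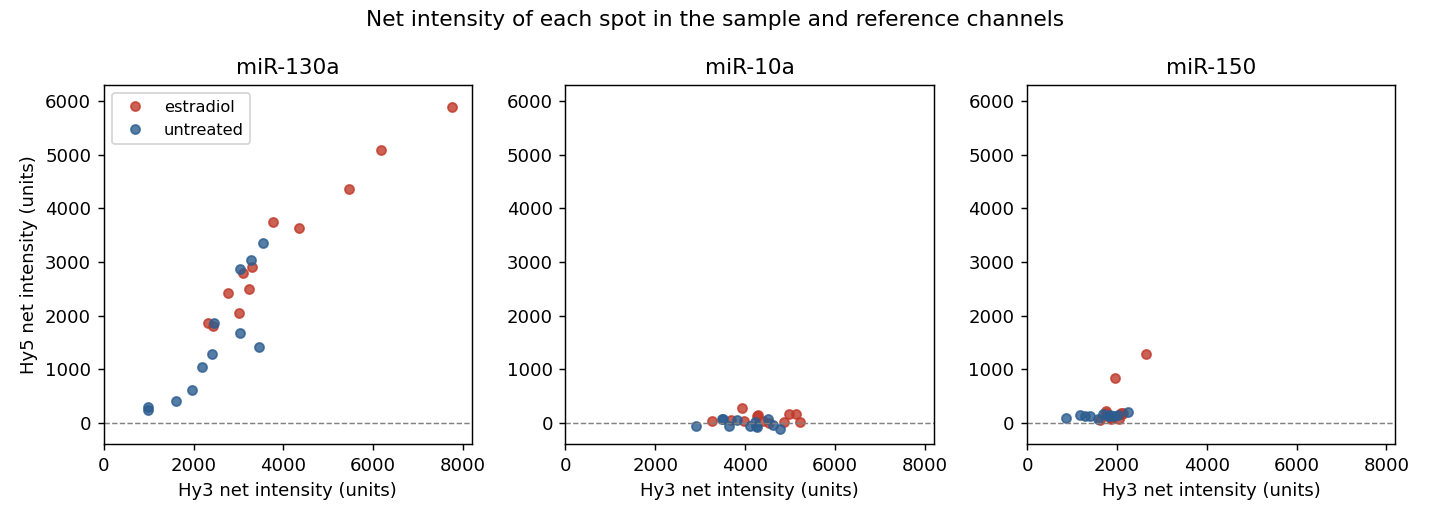
Net intensity (foreground minus local background, in intensity units) of each of the 24 spots of miR-130a, miR-10a and miR-150, with Hy3 on the horizontal and Hy5 on the vertical axis, estradiol in red and untreated in blue. The channels rise together for miR-130a, while Hy5 stays between -118 and 278 for miR-10a at any Hy3 level, and 2 estradiol spots of miR-150 lie above the others in Hy5.

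The probe of miR-10a, which is encoded in the Hoxb cluster, gave signal in the sample channel on every array. Its Hy3 foreground was 5194, 5381 and 5787 units on estradiol arrays 1 to 3, and 4545, 5490 and 5940 on untreated arrays 1 to 3. The local background was 1109, 1084 and 1034 on the estradiol arrays and 1012, 1440 and 1487 on the untreated arrays. All 24 spots exceeded the background by more than 2 background SD. The reference behaved otherwise, with all 24 Hy5 spots called empty. Hy5 foreground was 680, 604 and 647 units over backgrounds of 559, 532 and 571 on the estradiol arrays, and 573, 782 and 1188 over 550, 808 and 1231 on the untreated arrays.

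Since the reference is an equal mixture of all 6 samples, a miRNA present in each of them is present in it too. The computed ratio of miR-10a averaged 14.6 over the 6 arrays, where the median probe seen in Hy3 on all arrays (45 probes) had a mean ratio of 1.03. Its denominator is an empty spot, so this ratio has no measured size. Of those 45 probes 5 had a reference called empty on all 6 arrays, namely miR-140, miR-10a, miR-143, miR-301 and miR-122a. Why the reference of miR-10a gave no signal was not tested, nor was whether its Hy3 signal comes from miR-10a itself.

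For this reason the channels of miR-10a are given separately. In Hy3, background-corrected log2 intensity averaged 12.16 ± 0.1 after estradiol and 12.07 ± 0.18 in untreated cells (SD, n = 3 each), a difference of 0.1 (exact permutation p = 0.5, two-sided). In Hy5 it averaged 8.13 ± 0.16 on the estradiol arrays and 8.24 ± 0.05 on the untreated arrays (SD, n = 3 each; exact permutation p = 0.2, two-sided). The groups overlapped in both channels. With 3 arrays against 3 the smallest two-sided p this test can give is 0.1, so it could not pass the threshold, and over the 6 such tests made here (3 members, 2 channels) the adjusted p was 0.6 to 1. The Hy3 difference of 0.1 lies below the median difference of 0.53 over the 51 bright probes, and normalizing Hy3 alone by quantiles put miR-10a at -0.38 (SE 0.2, limma adjusted p = 0.27).

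The log ratio of miR-10a was 3.7, 3.96 and 4.24 on estradiol arrays 1 to 3, against 3.28, 4.01 and 3.84 on untreated arrays 1 to 3. Computed over an empty reference, the difference was 0.26 (SE 0.29, 95% interval -0.4 to 0.92, limma adjusted p = 0.63), with overlapping groups. It stood at 0.04 without untreated array 1, 0.12 without estradiol array 3, 0.39 without estradiol array 1 and 0.41 without untreated array 2. The authors' deposited table has miR-10a at 3.5, 3.77 and 4.07 on the estradiol arrays and at 3.48, 4.7 and 3.93 on the untreated arrays, from which the fitted difference was -0.26 (adjusted p = 0.635). The sign of the miR-10a difference thus changed with the processing.

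MiR-10b differs from miR-10a by 1 base and gave no signal. Its foreground lay between 0.831 and 1.11 times the local background in Hy3 and between 0.78 and 1.06 times in Hy5. On estradiol arrays 1 to 3 the Hy3 foreground was 1009, 953 and 1042 over backgrounds of 1003, 1004 and 941, and on untreated arrays 1 to 3 it was 978, 1327 and 1424 over 972, 1597 and 1336. All 24 spots were empty in both channels. In Hy3 the probes of the pair thus gave opposite calls on every array, and in Hy5 both were called empty on every array. U12A is the only difference between the mature sequences of the pair. How well each probe binds is not given in the sources used here, so the 2 levels are not set against each other.

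MiR-150, a lymphoid miRNA that also steers the shared progenitor toward megakaryocytes, showed the pattern of miR-10a at a lower margin over background. Its Hy3 foreground was 3196, 2879 and 2865 units on estradiol arrays 1 to 3 (backgrounds 991, 1003 and 953). On untreated arrays 1 to 3 it was 2095, 3468 and 3119 (backgrounds 908, 1575 and 1278). In Hy3, 22 of its 24 spots were not empty, and both empty ones lay on untreated array 1. Only 1 of the 24 exceeded the background by 2 background SD, so miR-150 did not pass the brightness filter.

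In the reference, 22 of 24 spots of miR-150 were empty. The Hy5 foreground was 1152, 655 and 721 units over backgrounds of 540, 554 and 556 on the estradiol arrays, and 624, 1155 and 1296 over 505, 998 and 1176 on the untreated arrays. The spots that were not empty both belong to estradiol array 1, where blocks 10 and 14 read 1797.5 and 1350 units and blocks 2 and 6 read 727.5 and 733. On the same array 1 spot of miR-126-3p (1499 units, block 9) and 1 of miR-132 (1256.5 units, block 2) were the only other Hy5 spots not called empty. Apart from miR-130a, the members had 4 such spots of 144, and all 4 lay on estradiol array 1, which holds 24 of the 144. What set these spots apart was not tested.

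The log ratio of miR-150 was 1.65, 2.68 and 2.42 on estradiol arrays 1 to 3 and 1.4, 2.28 and 1.95 on untreated arrays 1 to 3, with overlapping groups. Estradiol array 1, with its brighter Hy5 spots, gave the lowest value of its group. With all 294 probes tested, over a mostly empty reference, the difference was 0.37 (SE 0.26, 95% interval -0.17 to 0.92, limma adjusted p = 0.505). It stood at 0.67 without estradiol array 1, at 0.57 without untreated array 2, at 0.15 without estradiol array 2 and at 0.13 without untreated array 1. Without background correction it was 0.36 and passed (adjusted p = 0.0418, against 0.0418 to 0.952 over all alternatives). In Hy3 by itself, background-corrected log2 intensity averaged 11.11 ± 0.15 after estradiol and 10.82 ± 0.39 in untreated cells (SD, n = 3 each), a difference of 0.29 (exact permutation p = 0.4, two-sided), below the median of 0.53 over the bright probes. Normalized by quantiles, Hy3 alone gave -0.29 (limma adjusted p = 0.578). The authors' deposited table, with 1.5, 2.48 and 2.23 on the estradiol arrays and 1.6, 2.57 and 1.98 on the untreated arrays, gave 0.02 (adjusted p = 0.952).

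**Figure D4:**
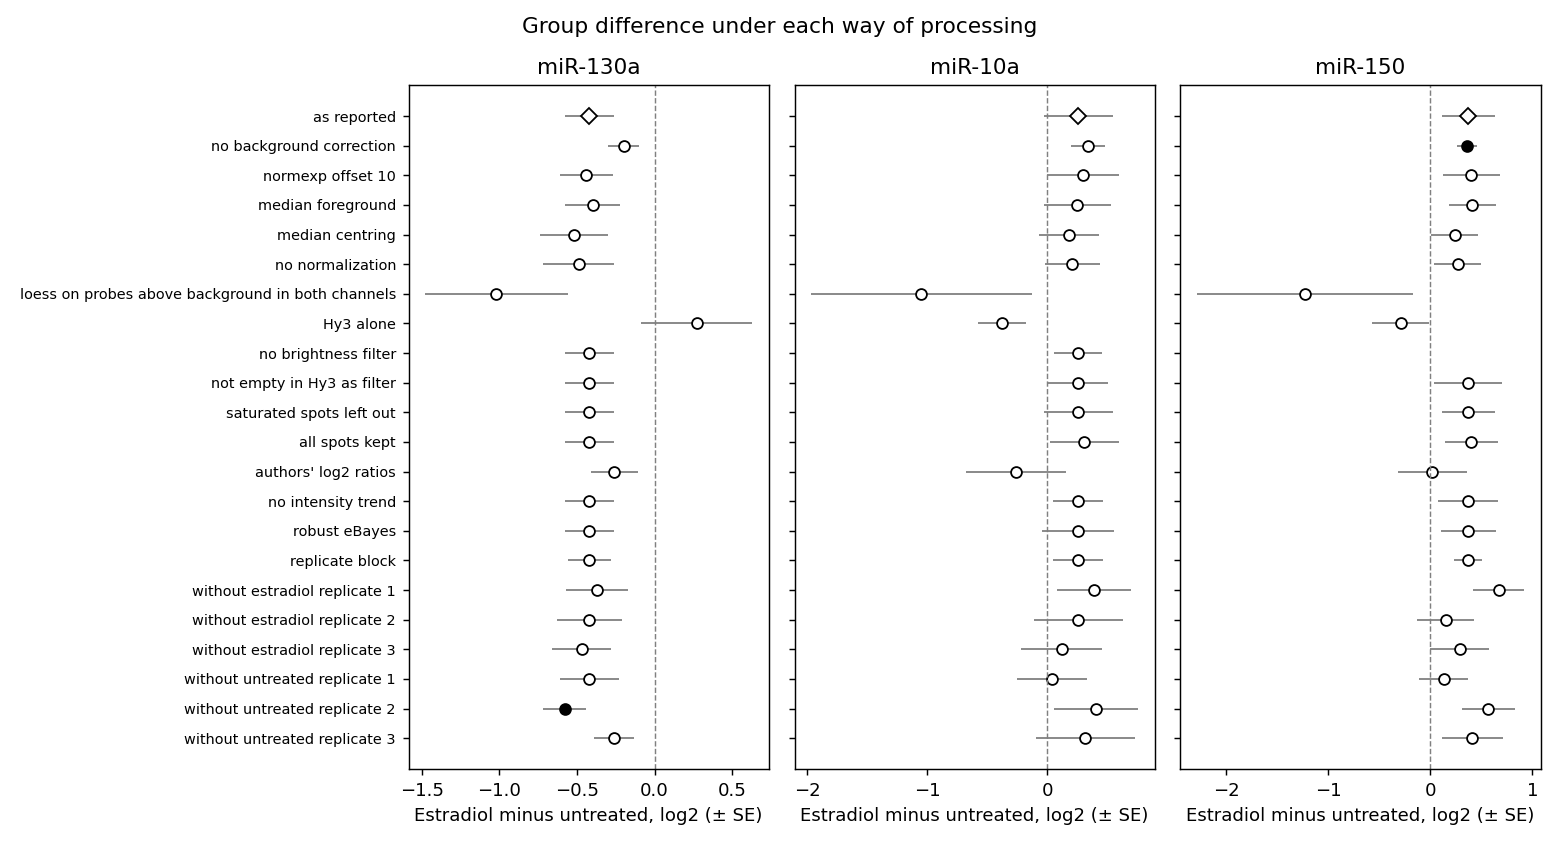
Estradiol minus untreated difference (log2, bars ± SE) of miR-130a, miR-10a and miR-150 under each way of processing, with a diamond for the value as reported and filled symbols for an adjusted p below 0.05. MiR-130a passed without untreated replicate 2 and miR-150 without background correction. All 3 turned sign in Hy3 alone, and miR-10a and miR-150 also where the loess curve was fitted on the 23 probes bright in both channels, none of them a member.

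In units of foreground over local background, which need no normalization, Hy3 of miR-10a was 4.69, 4.96 and 5.6 on estradiol arrays and 4.49, 3.81 and 3.99 on untreated arrays, without overlap. MiR-150 was also without overlap, at 3.22, 2.87 and 3.01 on estradiol arrays against 2.31, 2.2 and 2.44 on untreated arrays. The empty reference of miR-10a separated too, with Hy5 at 1.22, 1.14 and 1.13 on estradiol arrays against 1.04, 0.967 and 0.965 on untreated arrays. So did miR-132, empty in all its Hy3 spots, with Hy3 at 1.25, 1.38 and 1.16 against 1.13, 1.09 and 1.05. The Hy3 groups of miR-10b, miR-126-3p, miR-126-5p and miR-130a overlapped. In Hy3 the groups were without overlap for 66.7% of the 51 bright probes, so these values do not single out miR-10a. No such share was computed for probes below the brightness filter, where miR-150 and miR-132 belong. The median Hy3 background was highest on untreated arrays 2 and 3 (1202.5 and 1412) and lowest on untreated array 1 (982.5). Whether background set the groups apart was not tested.

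MiR-126, whose gene lies within Egfl7, was not detected above background in the samples by either probe. For miR-126-3p the Hy3 foreground was 1256, 1106 and 1181 units over backgrounds of 1044, 990 and 947 on the estradiol arrays, and 1041, 1448 and 1542 over 945, 1518 and 1307 on the untreated arrays. Its Hy5 foreground was 1.18 to 1.78 times the background on the estradiol arrays and 1.14 to 1.39 times on the untreated arrays, with 23 of 24 Hy5 spots called empty. The log ratios nevertheless did not overlap, at -0.51, -0.25 and -0.43 on estradiol arrays 1 to 3 against -0.78, -0.8 and -0.67 on untreated arrays 1 to 3. MiR-126-3p was the only member without overlap, a pattern that 21.5% of the 293 probes measured on every array showed. Its difference of 0.36 (SE 0.16) did not pass (limma adjusted p = 0.284 with all 294 probes), and without background correction it was 0.08. Both sides of this ratio lie near background.

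MiR-126-5p, the other arm of the same hairpin, had Hy3 foreground of 0.92 to 1.08 times the background on the estradiol arrays and 0.833 to 1.04 times on the untreated arrays. All its 24 spots were empty in both channels. Its log ratios ran from -0.71 to 0.27 after estradiol, wider than the span of -0.43 to -0.25 in untreated cells, and the groups overlapped.

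MiR-132, which is cut from the same primary transcript as miR-212 and is induced by CREB in neurons, was empty in Hy3 in all 24 spots. The Hy3 foreground was 1236, 1351 and 1129 units on the estradiol arrays and 1100, 1779 and 1431 on the untreated arrays, that is 1.16 to 1.38 times the background after estradiol and 1.05 to 1.13 times in untreated cells. Hy5 was 1.46 to 1.58 times its background on the estradiol arrays and 1.05 to 1.33 times on the untreated arrays. Its log ratios were -0.34, -0.26 and -0.72 after estradiol and -0.54, -0.55 and -0.55 in untreated cells, with the untreated values inside the estradiol range. For the members empty in both groups a change is not detectable with these arrays.

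**Figure D5:**
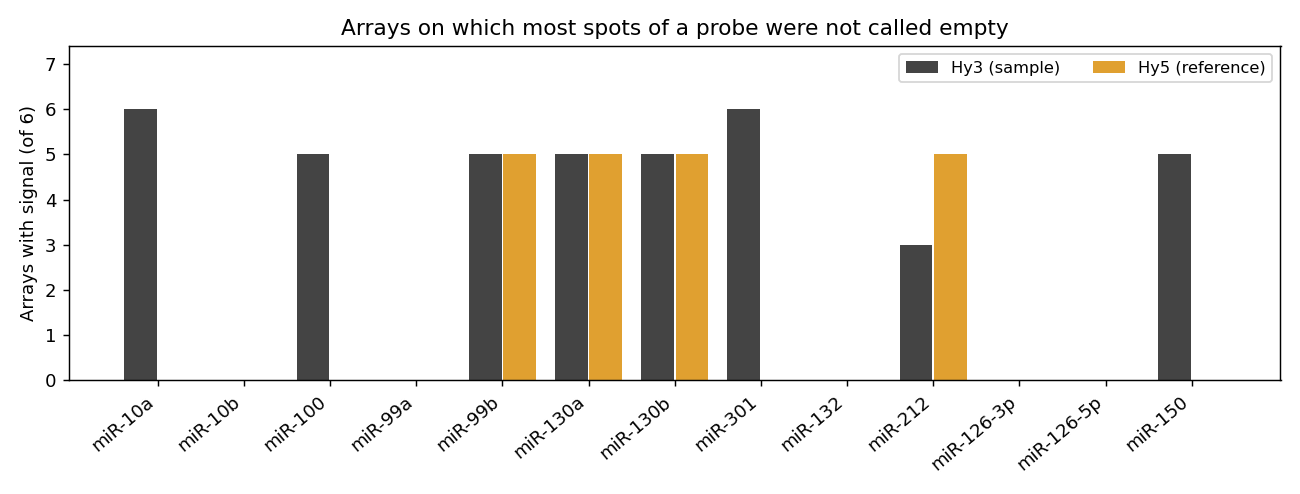
Number of arrays, of 6, on which more than a share of 0.5 of a probe's spots were not called empty, in Hy3 (dark bars) and Hy5 (yellow bars), for the 7 members and 6 relatives in order of family. MiR-10a, miR-100, miR-301 and miR-150 have Hy3 bars and no Hy5 bar, and miR-130a, miR-130b and miR-99b have both on 5 arrays.

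Seed and family relatives were taken from a list of 8 names, of which 6 were measured. None of the 6 passed the threshold in either direction, and their median difference was -0.04, beside -0.02 over all 294 probes. MiR-130b, which differs from miR-130a at 2 bases, was the only one that passed the brightness filter. Its log ratio was 0.06, -0.06 and 0.13 on estradiol arrays and 0.35, 0.09 and 0.23 on untreated arrays, a difference of -0.18 (limma adjusted p = 0.32), and the groups overlapped as those of miR-130a did. MiR-301, with the same seed, was seen in Hy3 on all 6 arrays and in Hy5 on 0, like miR-10a, and stood at 0.09 (adjusted p = 0.84 with all probes). MiR-100, a relative of miR-10a with another seed, was likewise seen in Hy3 on 5 arrays and in Hy5 on 0, with a difference of 0.12 (adjusted p = 0.786). MiR-212 was seen in Hy3 on 3 arrays and in Hy5 on 5, unlike miR-132, and stood at -0.08 (adjusted p = 0.885).

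Other miRNAs reported as lower in human megakaryocyte cultures, miR-17-5p, miR-20a (2 probes) and miR-106a, had 4 probes, and none passed. Their median was -0.26, with miR-17-5p at -0.33 (limma adjusted p = 0.291) and the miR-20a probes at -0.2 and -0.32. MiR-106a went the other way, at 0.24 (limma adjusted p = 0.505), and was seen in Hy3 on 0 arrays. Of the 3 miRNAs reported beside miR-150 to repress Myb, 1 rose with all 294 probes tested, where 5.78% of all probes did. This was miR-16 (0.99, SE 0.24, limma adjusted p = 0.0195), while miR-15a stood at 0.58 (adjusted p = 0.0716) and miR-34a at -0.26 (adjusted p = 0.549). MiR-15a and miR-34a were empty in Hy3 on all arrays. The lymphoid markers other than miR-150, namely miR-181a, miR-181b and miR-155, were empty in Hy3 on all 6 arrays, so miR-150 was the only 1 of that list's 4 probes with sample signal.

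Among the 50 other bright probes, the 3 whose log ratios followed miR-130a most closely over the 6 arrays were miR-329, miR-470 and miR-351, with Pearson correlations of 0.91, 0.9 and 0.9. MiR-10a was followed most closely by miR-184 (0.93), miR-140 (0.73) and miR-423 (0.71). The reference of miR-140 was empty on all 6 arrays, as was that of miR-10a. These correlations describe 6 arrays that share 1 reference, the highest of 50 were picked, and none of the 6 miRNAs passed the threshold by itself among the 51 bright probes (limma adjusted p from 0.0678 for miR-351 to 0.918 for miR-184 and miR-423). With all 294 probes tested, miR-140 did pass (0.7, SE 0.18, limma adjusted p = 0.0284).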

How the data were processed

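The authors deposited scanner tables that give, for every spot and dye, raw foreground and local background intensity, per the file headers. A service provider labelled the RNA with a Hy3/Hy5 kit, per the labels. The scanner is not given in the sources used here. Every value of the deposited series table was found among the authors' log2 ratios of the same array (149 to 217 per array, tolerance 1e-06). These are Hy3 over Hy5, lowess within the array, per the file headers. Probe names were not matched in that check.

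For the report, limma 3.58.1 (R 4.3.3) corrected mean foreground for median background by normexp (offset 50) and applied global loess to log2(Hy3/Hy5), giving control spots weight 0. Between 94 and 204 of 2240 spots per array, marked as misshapen or contaminated but not saturated, were dropped, and a probe's spots were averaged. A probe counted as bright if, on all 3 arrays of a group, its Hy3 median exceeded the background median by 2 SD of the background in a share of 0.5 or more of its spots. More probes did so on each estradiol array (57 to 62) than on each untreated array (38 to 47), so the filter favours probes bright after estradiol. The test was lmFit with eBayes (variance trend), Benjamini-Hochberg adjusted over the 51 bright or all 294 probes, at 0.05. Named are all 7 members, listed relatives and, for each tested member, the 3 most alike probes. Members and lists were chosen with earlier results of these data known. The steps were tested on simulated arrays. The number of arrays limits the precision. Plots used matplotlib 3.10.9 (Python 3.11.15).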

Additional observations from a re-analysis of the deposited data

How the results depend on the processing

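Over 21 alternatives each, miR-10a and miR-130a kept their direction and side of the threshold in 18 and 19, miR-150 in 17 of 20 and miR-126-3p in 17 of 18. In Hy3 alone the sign turned for miR-10a (-0.38), miR-130a (0.27) and miR-150 (-0.29). With loess on the 23 probes above background in both channels on all arrays it turned for miR-10a (-1.05), miR-150 (-1.23) and miR-126-3p (-1.81), and miR-130a, which kept its sign, stood at -1.02. These members lie outside the probes that the curve was fitted on. In the authors' log2 ratios miR-10a stood at -0.26. MiR-150 passed without background correction (0.36), and the cause was not tested. With each array left out in turn, the difference was 0.04 to 0.41 for miR-10a, -0.58 to -0.26 for miR-130a, 0.13 to 0.67 for miR-150 and 0.28 to 0.41 for miR-126-3p. The count of members called was then 0 to 1, the 1 being miR-130a without untreated replicate 2.

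The 7 calls among 51 probes became 3 with median centring, 3 with no normalization, 19 with no filter (294 probes) and 15 with the empty call as filter (80 probes). With 5 of the 6 arrays the number was 5 to 10. Higher after estradiol were 85.7% of the 7 calls, 66.7% of those with median centring, 100% of those with no normalization and 50% of those in Hy3 alone. Same-numbered arrays did not deviate together (correlations of 0.08, -0.11 and -0.11), so no pairing by number was seen. With 3 arrays per group these values cannot show that the samples are unpaired. With the replicate number as a block the differences of miR-10a (0.26), miR-130a (-0.42), miR-150 (0.37) and miR-126-3p (0.36) stayed on the same side, the count of probes was 8 and that of members 0. No alternative with slide or scan as a block was run, since the files used here give neither. No member passed the filter for signal in both channels on all arrays.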
